A study of Mus musculus with 60 samples.

Results

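The 100 most variable genes of the mouse striatum, the forebrain nucleus that receives dopamine and cortical input and on which haloperidol acts, were examined across 60 mice. The members were chosen by their measured values: among 5198 genes of 9066 in the deposited gene table with a mean normalised read count of at least 500, 211 genes of named families (symbols starting with Fos, Egr, Nr4a, Zfp, Slc, Kcn, Rpl or Rps) were left out, and of the remaining 4987 the 100 with the highest coefficient of variation (CV, the SD over the mean of all mice) were taken. The normalised read count is the number of reads on a gene's exons multiplied by 1 factor per library. All mice came from the HS-CC, a heterogeneous stock bred from the founder strains of the collaborative cross, and descended from generations selected for their response to haloperidol, a dopamine D2 receptor antagonist that induces catalepsy, a state of immobility. By the labels, 28 were female, of which 13 did not respond and 15 responded, and 32 were male, of which 17 did not respond and 15 responded. No age was given. The striatum was dissected by hand and polyA RNA was sequenced in 1 library per mouse, so p-values measure the spread between these mice.

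Most striatal neurons are GABAergic medium spiny neurons, which carry dopamine D1 or D2 receptors and project to the pallidum and midbrain. The glutamatergic neurons of the overlying cortex express a different set of transcription factors, including Tbr1 and Cux2, and the cortex lies directly against the dissected tissue, separated by the white matter. In bulk tissue, fewer cells of a type and less RNA per cell cannot be told apart. Of 17 medium spiny neuron markers measured, none was among the 100 members, whereas 4 of the 6 measured cortical excitatory markers were, Tbr1, Cux2 and Nptx1 among them.

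The CV of the members ran from 1.94 for Gm15564 to 0.330 for Dbi, against a median of 0.145 over the 4987 genes. It exceeded 1 for 7 members, lay between 0.5 and 1 for 6 and was under 0.5 for 87. Just inside the threshold were Adgra1 (CV 0.331236), Disp2 (0.331003) and Dbi (0.330433), and just outside were Csmd3 (0.330186) and Cst3 (0.330182). Without the exclusion by symbol, 11 genes of the excluded families would have entered, led by the potassium channel gene Kcnh7 (CV 0.554) and the sodium-calcium exchanger gene Slc8a1 (CV 0.530). Of the members, 97 had a symbol, 90 were annotated as protein coding and 3 as pseudogenes.

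**Figure D1:**
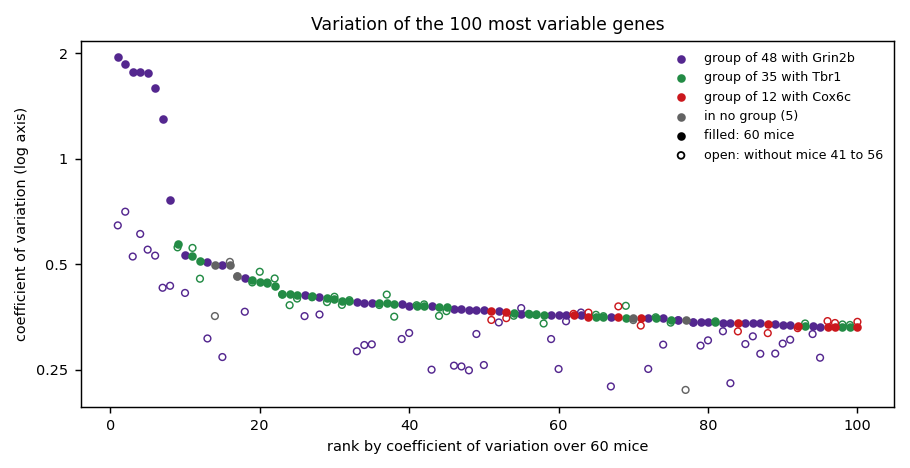
Coefficient of variation (log axis) of the 100 members against their rank over 60 mice, coloured by the group of members that vary together; filled points are all 60 mice and open points leave out mice 41 to 56. The 7 members above 1 drop to between 0.428 and 0.705 without those mice.

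Libraries held 4913122 to 21872744 reads on the listed genes (median 14520042), and 20 of them stood apart in ways that touched the members. Mice 41 to 56, 16 libraries with 4 in each of the groups, all lay among the 17 shallower libraries (at most 9507322 reads, the other 43 having at least 12051239). Mice 4, 5, 62 and 63 had reads shifted toward the 3′ ends of genes: the slope of exon values along a gene, relative to the mean mouse, was 0.462, 0.606, 0.327 and 0.947, against -0.119 to 0.136 in the other 40 mice and -0.265 to -0.124 in mice 41 to 56. The labels name no batch.

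By their correlations across mice, the members fell into groups of 48 (with Grin2b), 35 (with Tbr1) and 12 (with Cox6c), with mean correlations between genes of 0.787, 0.800 and 0.693, and 5 genes that joined none. The groups differed in transcript length, which the choice did not use: the median longest transcript was 11390.5 bases in the Grin2b group, 5714 in the Tbr1 group and 800 in the Cox6c group, against 4321.5 over all 4987 genes. With mice 41 to 56 left out, the Tbr1 group kept all 35 genes together and gained Ryr2, Plxna1 and Csmd2. Another 38 genes of the Grin2b group stayed together, and 11 genes of the Cox6c group were joined by Cox7a2. The remaining 7 of the Grin2b group left it: Gm15564, Gm23935, Lars2, ENSMUSG00000093077 and Gm24245 formed a group of 5, and Malat1 and ENSMUSG00000045999 stood alone. Without those mice these 7 still ranked between 1 and 17 by CV. This ranking kept the genes chosen by their mean over all mice. In the remaining mice the medians ran from 11.6 for Gm23935 and 21.7 for Gm15564 to 1848 for Lars2 and 4999 for Malat1. The ranks of Gm23935 and Gm15564 there rest on low counts.

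**Figure D2:**
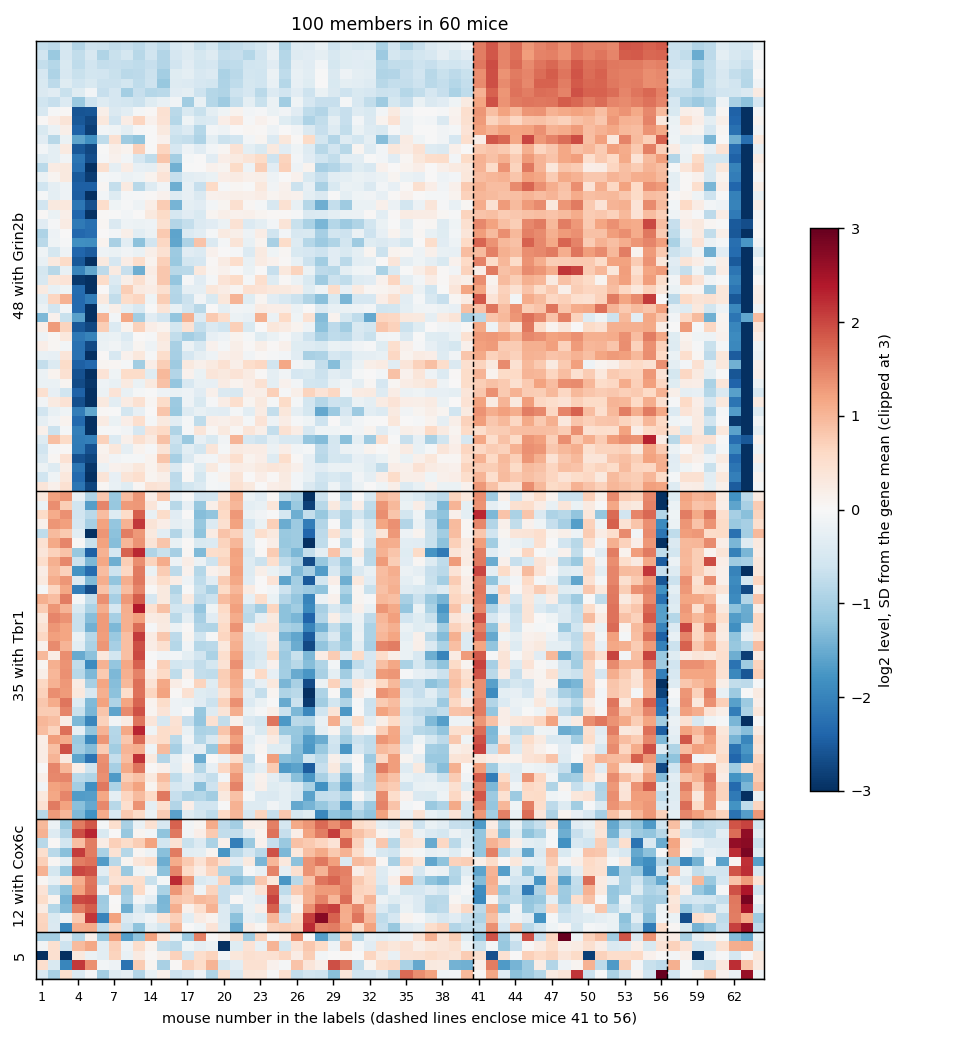
Level of each of the 100 members (rows, by group) in each of the 60 mice (columns, by mouse number), as SD units of log2 from the gene mean, clipped at 3. The Grin2b group is high between the dashed lines (mice 41 to 56) and low in mice 4, 5, 62 and 63, and the Tbr1 group is lowest in mice 27 and 56.

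The most variable members were 7 features of the Grin2b group that were far higher in mice 41 to 56 than in any other mouse. Besides Malat1, an abundant nuclear long noncoding RNA, and Lars2, the mitochondrial leucyl-tRNA synthetase, they were Gm15564, the short RNA genes Gm23935 and Gm24245, and 2 features without a symbol, ENSMUSG00000093077 and ENSMUSG00000045999. Gm23935 and Gm24245, annotated as miRNA genes of 57 bases, are shown because their reference sequences (GRCm38, GENCODE M21) are the same, with 0 differences, so a read within one also matches the other.

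Gm23935, chr16:11144125-11144181, + strand: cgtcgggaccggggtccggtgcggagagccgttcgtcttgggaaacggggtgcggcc
Gm24245, chr4:139338304-139338360, + strand: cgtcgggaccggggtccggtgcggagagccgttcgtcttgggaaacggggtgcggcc

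Despite the shared sequence, the mean level of Gm24245 was 10.7 times that of Gm23935, and the levels of the pair varied together (r = 0.980). Gm24245 lay between 26504 and 85024 in mice 41 to 56 (median 38181) and between 133 and 1506 in the other 44 (median 436), and Gm23935 lay between 1555 and 8013 (median 3568) against 0 to 51.1 (median 11.6). For both, the lowest of the 16 mice was far above the highest of the others.

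Lars2 (chr9:123366927-123462666, + strand, GRCm38) lay between 163651 and 546556 in mice 41 to 56 and between 914 and 5820 in the other 44, with no overlap. Of its reads, 99.7% fell in 1 of 21 exon rows, and in that row the ranges were 163390 to 546322 and 638 to 5576. The other 20 rows summed to 156 to 284 in mice 41 to 56 and to 120 to 280 in the rest, so the ranges of the remainder of the gene overlapped almost fully. Malat1 lay between 39701 and 94696 against 2149 to 13425. Over the 7 features the ratio of the medians was 12.7 to 473. Counting every member, 13 were higher in mice 41 to 56 without overlap, where 1.45% of the 8535 genes tested were; the CV that chose the members used these same values.

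**Figure D3:**
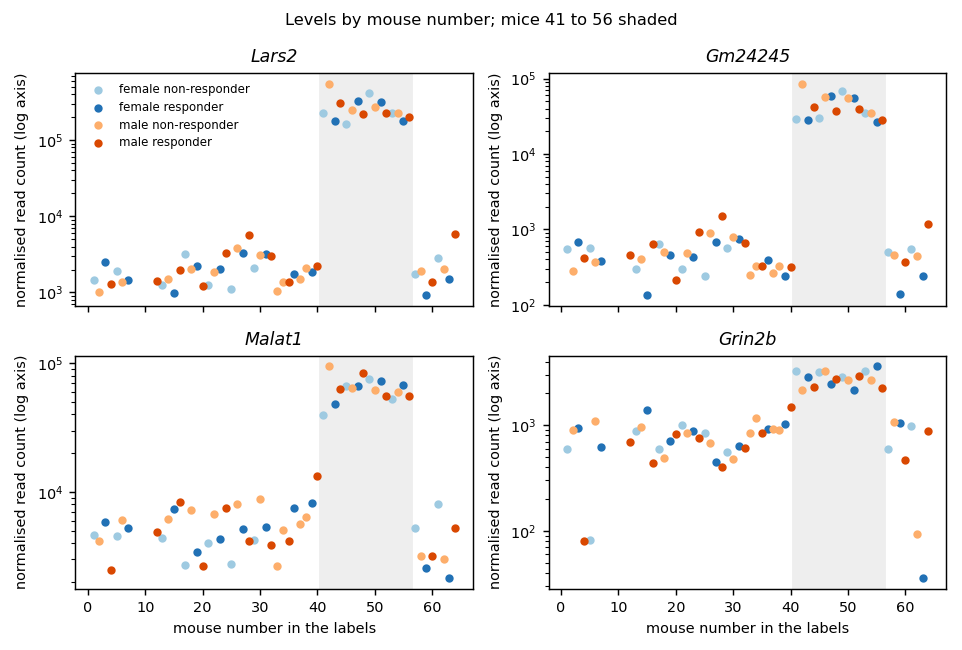
Normalised read counts (log axis) of Lars2, Gm24245, Malat1 and Grin2b by mouse number, coloured by sex and response, with mice 41 to 56 shaded. The shaded mice lie above all others in each panel, and Grin2b is also lowest in mice 4, 5, 62 and 63.

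The other 41 members of the Grin2b group had a median longest transcript of 12052 bases, although Kctd16 (2767), Gucy1a2 (3233) and Epha6 (3930) lay below the median of all genes. They included the NMDA receptor subunits Grin2a and Grin2b, the ryanodine receptors Ryr2 and Ryr3, which release calcium from internal stores, the active zone scaffold Pclo, the teneurins Tenm1 and Tenm4, the netrin receptor Dcc, the chromatin factors Srcap and Crebbp, and Tnrc6b, which acts in microRNA silencing. Others were the growth factor receptors Igf1r and Ntrk3, the ephrin receptor Epha6, the semaphorin receptors Nrp2 and Plxna1, the large membrane proteins Csmd1, Csmd2, Fat3 and Lrp1b, the synaptic vesicle protein Sv2c, the postsynaptic protein Lrrc7, the matrix protein Tnr, the kinases Taok1, Hipk2, Dgkh and Dgki, the ubiquitin ligase Cbl and the guanylate cyclase subunit Gucy1a2. All 41 had a higher median in mice 41 to 56, by 1.25 to 3.36 times (median 1.67). In all 41 the 4 mice with 3′ shifted reads lay below the other 40, and mouse 63 was the lowest of all 60 in 39. Of all members, 45 lay lower in those 4 mice without overlap, against 11.1% of the 8535 genes, and 1 lay higher, against 8.03%. Here too the CV that chose the members used the same values.

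Grin2b (chr6:135713233-136173511, - strand, GRCm38) was 2140 to 3619 in mice 41 to 56 (median 2791), 35.7 to 93.6 in the 4 mice with 3′ shifted reads and 406 to 1487 in the other 40 (median 845). These 3 ranges did not overlap. Grin2a was 834 to 2062, 22.2 to 103.2 and 320 to 1083 in the same order, with overlap between the first and the last. Because the 4 mice stood apart from the rest, the relation to the 3′ slope is given within the other 40 mice, where the correlation of the 41 genes with it was -0.392 to 0.175 (median -0.116, 8 positive). Marker scores also moved with the 41 genes. The median correlation was -0.599 with the microglia score, -0.575 with the oligodendrocyte score, -0.431 with the astrocyte score, and 0.517 with both the globus pallidus and the thalamus and habenula scores. In the other 40 mice these medians were -0.329, -0.414, -0.430, 0.471 and 0.154. Over all mice the share of the 41 genes at an absolute r over 0.6 was 48.8%, 34.1%, 4.88%, 12.2% and 7.32% for these scores. Over the 4987 genes the shares were 23.6%, 8.42%, 23.5%, 20.7% and 1.08%. The score of sex-linked genes (Kdm6a, Kdm5c and Ddx3x), not a cell type score, had a median correlation of 0.542, and 0.401 in the other 40 mice. Its shares were 4.88% of the 41 genes and 4.39% of the 4987. The part of library preparation or of these cell types in the levels was not tested.

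Without the 20 libraries that stood apart, 10 of the 48 genes of the Grin2b group remained among the 100 most variable genes. These 10 were Grin2b, Grin2a, Nrp2 and the 7 most variable members described above. The ranking kept the genes chosen by their mean over all mice. Gm23935, at rank 1, had a median of only 11.6 in the remaining mice. Of the Cox6c group 7 of the 12 genes remained. The Tbr1 group kept all 35 of its genes. The group held transcription factors (Tbr1 and Cux2 of cortical projection neurons, with Satb1 and Tshz3), receptors and channels (the muscarinic receptor Chrm3, the nicotinic subunit Chrna4 and the GABA-B subunit Gabbr2), and synaptic or extracellular proteins (the pentraxin Nptx1, the scaffold Shank1 and the perineuronal net protein Hapln4). The other members described here were Scube1, Car10, Nwd2, Plcxd2, Ptpn3, Tmem132d, Cadps2, Mical2, Fhod3, St8sia5, Lingo1, Fmn1, Ptprk, Ipcef1, Hs3st2, Sel1l3, Trhde, Clstn2, Olfm1, Sez6l, Nos1ap, Adgra1 and Disp2. From the lowest to the highest mouse the level differed 3.13-fold for Adgra1, the least in the group, with a median of 5.75-fold.

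Tbr1 (chr2:61802930-61814114, + strand) ranged from 219 in mouse 56 and 264 in mouse 27 to 3089, with a median of 1450. Nptx1 ranged from 1626 to 12093 and Cux2 from 288 to 1503. For Tbr1, mice 27 and 56, both responders, lay apart from the others, of which the lowest was at 700. No gene of the group had separate levels by the definition used here, which needs at least 5 mice on each side. Across mice Tbr1 correlated with Nptx1 at r = 0.939 and with Cux2 at 0.631; these pairs, chosen for varying together, are a description.

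**Figure D4:**
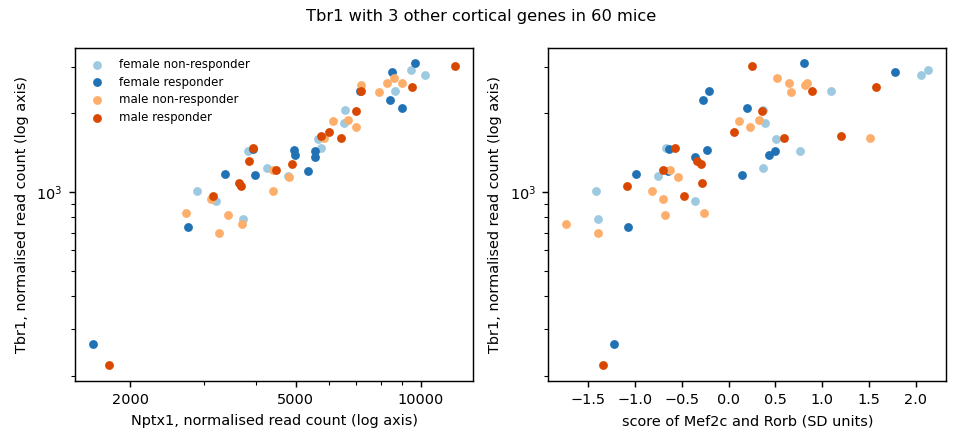
Tbr1 normalised read count (log axis) in each of 60 mice against Nptx1 (log axis, left) and against the mean standardised level of Mef2c and Rorb (right), coloured by sex and response. Tbr1 rises with both, from 219 to 3089, and responders and non-responders overlap except for the 2 lowest mice, both responders.

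Only 2 other cortical markers, Mef2c and Rorb, were measured outside the members, fewer than the 3 genes set as the minimum for a score, so their mean standardised level was added after the data were seen. Both genes are also expressed outside the cortex. Against this score, the correlations of the 35 genes were 0.467 to 0.879 (median 0.784), and 34 of 35 reached an absolute r of 0.6, as did 8.76% of the 4987 genes. The median was 0.785 in the 43 deeper libraries, 0.858 in the 17 shallower ones and 0.772 in the 40 mice outside the libraries that stood apart. The 2 score genes differed: Mef2c correlated with Tbr1 at 0.892 and with Nptx1 at 0.894, and Rorb at 0.465 and 0.446. With Cux2 they had 0.753 and 0.711. By CV Mef2c ranked 119 and Rorb 113 of the 4987 genes, not far outside the members.

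For Tshz3 the correlation with the Mef2c and Rorb score was r = 0.878 and rho = 0.888 (permutation test, p = 1e-05 for both, the smallest the permutations can give, adjusted p = 4.7e-05 and 6.1e-05 over 1600 correlations), and r = 0.875 without the 2 mice of most extreme score. For Tbr1 it was r = 0.758 and rho = 0.825 (permutation p = 1e-05 for both, adjusted p = 4.7e-05 and 6.1e-05), with r = 0.747 without those 2 mice, 0.785 in the 43 deeper and 0.805 in the 17 shallower libraries.

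The medium spiny neuron score (17 genes) ran the other way, with correlations of -0.736 to -0.345 for the 35 genes (median -0.568), and -0.558 in the 43 deeper and -0.609 in the 17 shallower libraries. Cux2 had r = -0.709 and rho = -0.695 with it (permutation p = 1e-05 for both, adjusted p = 4.7e-05 and 6.1e-05), and r = -0.706 without the 2 mice of most extreme score. The 35 genes also ran against the oligodendrocyte score, with correlations of -0.718 to -0.387 (median -0.564, -0.647 in the 43 deeper and -0.349 in the 17 shallower libraries). The median was -0.533 with the astrocyte score and -0.470 with the microglia score, and all 35 genes were negative with both. With the globus pallidus score (Lhx6, Kcnc1 and Syt2) all 35 were positive, from 0.042 to 0.858 (median 0.373). The share of the 35 genes at an absolute r over 0.6 was 20% with the globus pallidus and microglia scores. It was 31.4% with the astrocyte, 28.6% with the oligodendrocyte and 34.3% with the medium spiny neuron score. Over the 4987 genes the shares were, in this order, 20.7%, 23.6%, 23.5%, 8.42% and 3.49%. How much cortical tissue each dissection held was not measured.

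The 12 genes of the Cox6c group had longest transcripts of 231 to 3038 bases where annotated, all below the median of all genes. They included Cox6c, a subunit of cytochrome c oxidase, Uqcc2, an assembly factor of respiratory complex III, Mtln, a mitochondrial micropeptide, Dbi, an acyl-CoA binding protein, C1qb of the microglial complement, S100b of astrocytes and Bcas1 of the oligodendrocyte lineage, along with the ubiquitin ligase subunit Rnf7, 3 pseudogenes and ENSMUSG00000089944. The highest mouse was 63 for 10 of the 12. Cox6c was 753 to 2164 in the 40 mice outside the libraries that stood apart, 829 to 1632 in mice 41 to 56 and 1852 to 2441 in the 4 mice with 3′ shifted reads, which overlapped the first range.

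The group's levels varied with several marker scores, in both directions. The correlation with the microglia score was 0.494 to 0.789 (median 0.722) and with the astrocyte score 0.445 to 0.819 (median 0.706), and in the 40 mice outside the libraries that stood apart the medians were 0.583 and 0.693. With the oligodendrocyte score the median was 0.472, and 0.264 in those 40 mice. The share of the 12 genes at an absolute r over 0.6 was 91.7% with the microglia and 75% with the astrocyte score. It was 16.7% with the oligodendrocyte, 66.7% with the globus pallidus and 0% with the striatal interneuron score. Over the 4987 genes the shares were, in the same order, 23.6%, 23.5%, 8.42%, 20.7% and 3.99%. The globus pallidus score ran the other way, with correlations of -0.763 to -0.399 (median -0.704, -0.595 in those 40 mice), as did the striatal interneuron score (median -0.382, -0.567 in those 40 mice). The part of these cell types in the levels was not tested. C1qb had r = 0.789 and rho = 0.710 with the microglia score (permutation p = 1e-05 for both, adjusted p = 4.7e-05 and 6.1e-05), r = 0.729 without the 2 mice of most extreme score, 0.765 in the 43 deeper and 0.823 in the 17 shallower libraries. Bcas1 had r = 0.744 and rho = 0.711 with the oligodendrocyte score (permutation p = 1e-05 for both, adjusted p = 4.7e-05 and 6.1e-05), r = 0.705 without the 2 mice of most extreme score, 0.746 in the 43 deeper and 0.627 in the 17 shallower libraries.

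Several counts in this group are uncertain because the genes share sequence with others. Cox6c2, annotated as a pseudogene, shared 65.7% of its 25-base stretches with other genes, chiefly Cox6c, and correlated with it at r = 0.915. The pseudogenes Gm5805, close to Rps14, and Gm11478 shared 66% and 76.3%, and Rnf7 shared 41.1%, chiefly with Emb. Outside the group, Srcap shared 65.6% and Cwc22 27.4%.

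Separate expression levels, defined as a division of the mice with at least 5 on each side whose means lay at least 4 within-part SDs apart, were found in 8 of the 100 members, against 0.366% of the 5198 genes. The CV that chose the members used these same values, so the 2 shares are a description. In 7 of the 8 members the division was exactly mice 41 to 56 against the rest. The 8th was Cwc22 (chr2:77881159-77946375, - strand), a splicing factor of the spliceosome and the exon junction complex. In mice 3, 59, 1, 50 and 42 it was 96.0, 100.4, 103.6, 177 and 220, while in the other 55 it was 2157 to 9496 (median 6121), and the medians differed 59.1-fold. These 5 low mice were 2 responders and 3 non-responders, of both sexes, and each had 82 to 111 reads on the gene. None of the levels fell between 220 and 2157. Of the 24 exon rows of the gene, 7 were without overlap between the low and the other mice. What distinguishes the 5 mice was not analysed here.

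Of the genes that joined no group, 3 others had 1 mouse beyond the rest. Fam213b, a prostaglandin synthase gene, was 0.731 in mouse 20 (1 read), and the next lowest mouse had 169, with a maximum of 1278. It was also higher in the 4 mice with 3′ shifted reads (1063 to 1278) than the median of 468 in the other 40, which reached 1116. Sgk1, a kinase induced by glucocorticoids, was 3619 in mouse 56 against 2174 in the next mouse, and its CV was 0.346 over all mice and 0.219 without mice 41 to 56. Ryr1 was 1669 in mouse 48, 1037 in mouse 45 and 1032 in mouse 42, and its CV was 0.498 over all mice and 0.355 without mice 41 to 56. Sgk1 had r = 0.422 and rho = 0.402 with the score of 4 other glucocorticoid-induced genes (permutation p = 0.00101 and 0.00155, adjusted p = 0.00269 and 0.00425) and r = 0.483 without the 2 mice of most extreme score. It was 0.811 in the 17 shallower and 0.127 in the 43 deeper libraries, so it did not hold alike within both.

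No member was on the list of activity-induced genes, of which 10 of 53 were in the table, and the rule had removed the Fos, Egr and Nr4a families. The correlation of the members with the activity score was -0.419 to 0.418, so none reached an absolute r of 0.6, as did 0.441% of the 4987 genes. Within the Tbr1 group the median was 0.351, 0.440 in the 43 deeper and 0.173 in the 17 shallower libraries.

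The labels of response to haloperidol played no part in choosing the members, and 1 of the 100 passed the test. In limma over all 8535 genes, 9 differed between responders and non-responders at an adjusted p under 0.05, which is 0.105% of the genes (0.0469% higher and 0.0586% lower in responders). The member was Cox7a2 (chr9:79755361-79759878, - strand), a subunit of cytochrome c oxidase. Cox7a2 was 612 to 1719 in female non-responders (median 1052), 446 to 1253 in female responders (median 680), 751 to 1901 in male non-responders (median 1028) and 410 to 1827 in male responders (median 733). The ranges overlapped, and the medians of the responders were the lower in both sexes. The difference on the log2(value + 1) scale was -0.52 (SE 0.11, adjusted p = 0.0145, limma), a ratio of 0.696. It was -0.53 (SE 0.16) in females and -0.51 (SE 0.15) in males, with a difference between the sexes of 0.02 (SE 0.22). The adjusted p was 0.0545 in edgeR, 0.25 in the 43 deeper libraries, 0.879 in the 17 shallower ones and 0.201 without mice 41 to 56.

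The exon rows of Cox7a2 differed from each other in this comparison. The 3′-most row was 137 to 1129 in responders (median 290) and 324 to 1179 in non-responders (median 636), whereas the other 3 rows together were 271 to 753 (median 394) and 288 to 767 (median 397). The ratio of the 3′-most row to the other 3 was 0.233 to 1.83 in responders (median 0.615) and 0.896 to 2.12 in non-responders (median 1.43), and 20 of 30 responders lay below every non-responder. The log2 ratio of the 3′-most row to the rest of the gene differed by -1.08 (SE 0.16, adjusted p = 7.5e-05, limma over 50965 exon rows), a fit added after these rows had been seen. Of those rows 17 passed, which is 0.0334% (0.0177% higher and 0.0157% lower in responders). Among the 808 rows of members 4 passed, all of Cox7a2. The 3′-most row was the lower share in responders and the other 3 rows the higher, by 0.43 to 0.79. Each row is set against the rest of its gene, so a lower 3′-most row by itself raises the shares of the other 3. The 4 rows are therefore not separate results. In females alone the difference was -1.10 (adjusted p = 0.127) and in males alone -1.07 (adjusted p = 0.316).

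**Figure D5:**
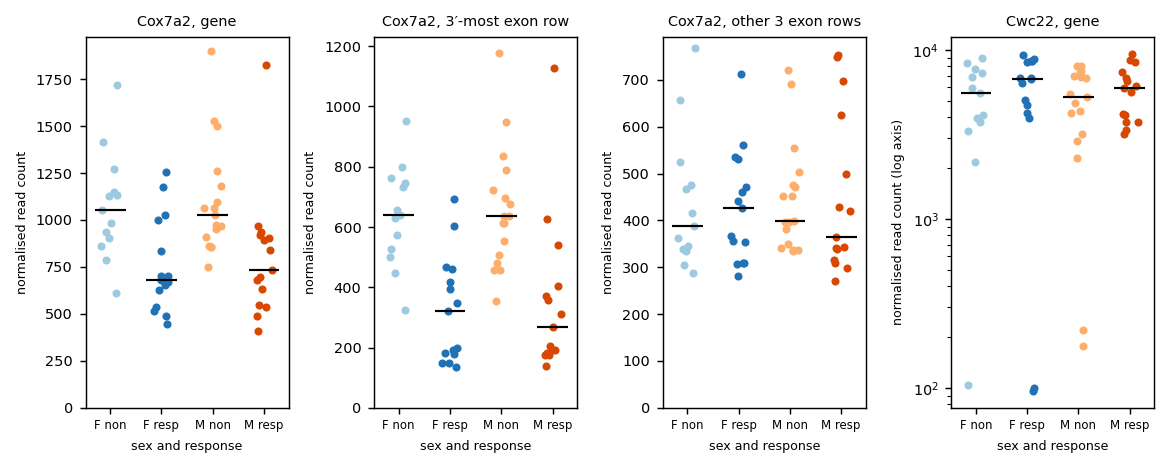
Normalised read counts by sex and response (F and M, non-responders and responders) of Cox7a2, of its 3′-most exon row and of its other 3 exon rows summed, and of Cwc22 (log axis); points are mice and bars are medians. The 3′-most row has medians of 290 in responders and 636 in non-responders, and its ranges overlap; the other 3 rows have medians of 394 and 397.

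The remaining 99 members did not pass. Bcas1 had the next smallest p, with a difference of 0.21 (SE 0.11, adjusted p = 0.808), followed by Fam213b at -0.53 (SE 0.31, adjusted p = 0.913). Only Cox7a2 had an unadjusted p under 0.05, against 6.49% of all genes. These shares cannot be compared directly, because the members were chosen for a wide spread between the same mice. Their median SE was 0.157 against 0.0605 over all genes, and their median absolute difference was 0.072 against 0.040. For the 35 genes of the Tbr1 group, 29 had lower fitted levels in responders, with a median difference of -0.08, and 0 passed. Tbr1 was 219 to 3089 in responders (median 1441) and 700 to 2913 in non-responders (median 1529), and the ranges overlapped except for the 2 lowest responders. Over all 100 members 71 differences were negative and 29 positive, and the median was -0.05 against -0.003 over the genes tested. Of the differences over all genes tested, 47.9% were positive. Genes of a group vary together across mice, so neither this count nor that of the Tbr1 group is one of separate results.

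No marker score passed the test for response after adjustment. The Mef2c and Rorb score differed by -0.15 SD units (permutation test within sex, p = 0.53, adjusted p = 0.86). Of 16 measures, the thalamus and habenula score had the smallest p (difference 0.33, permutation p = 0.00675, adjusted p = 0.108).

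No member passed the test for sex. With limma, 3 genes passed over all 8535 (0.0351%), and no member had an unadjusted p under 0.05. Here too the median SE of the members was larger (0.157 against 0.0607 over all genes). EdgeR and DESeq2 each called 0 members for sex as well. No gene passed for the interaction of response and sex, 0% of the genes, in limma (48 genes at an unadjusted p under 0.05), edgeR (44) or DESeq2 (48). In limma 1 member had an unadjusted p under 0.05: Rnf7, whose counts are uncertain, with a difference of differences of 0.54 (SE 0.26).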

How the data were processed

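The data were polyA RNA-seq libraries, 1 from the striatum of each of 60 mice. Per the submitters' processing notes and the methods, alignment by the authors used Bowtie 0.12.7 and NCBI m37. Reads over the union of each gene's Ensembl exons were then counted and scaled per library by the upper quartile in edgeR 3.4.2. The deposited gene table holds this signal, from which whole reads were recovered (largest deviation 6.54e-05 reads), and the deposited exon table holds a score, the same kind of value rounded to whole numbers by the authors.

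The members, the gene lists and their tests were chosen with earlier results of these data known. Groups came from the labels. Log2(value + 1) of genes with a mean of at least 10 was fitted with limma 3.58.1 (trend) in R 4.3.3, with response and sex as terms. As alternatives, edgeR 4.0.16 and DESeq2 1.42.0 were run on recovered reads. P-values were Benjamini-Hochberg adjusted over all features. Marker scores were means of standardised log2 values of list genes that were not members, and correlations used two-sided permutation tests with 100000 resamples. Groups of members were taken from average linkage on 1 minus r at a height of 0.5. The set of 7 features with a median at least 5 times higher in mice 41 to 56 and the exon row fit were defined after the values were seen. Gene positions came from GENCODE M21 (GRCm38), exon rows from the deposited table in NCBI m37, and no coordinates were converted. Scripts ran in Python 3.11.15 with pandas 2.3.3, scipy 1.17.1, matplotlib 3.10.9 and numpy 2.4.6. The fits were tested on simulated data. Named genes were the 10 members of highest CV, the genes around the threshold, those passing a test or of smallest p, those on a marker list, those with separate levels, and the leading genes of each group and score. Other genes, named to show a group's roles or for single mice, were chosen after their values were seen. A few members and neighbours of the threshold are not reported here.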

Additional observations from a re-analysis of the deposited data

How the results depend on the processing

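Among response comparisons, limma called 9 genes. The count was 23 with DESeq2, 5 for genes averaging at least 500, 20 with depth range and 44 with the 3′ slope as a covariate, 3 in the 43 deeper and 0 in the 17 shallower libraries (160 at an unadjusted p under 0.05), 18 with a term for mice 41 to 56 and 4 without them. The count of members called was 0 with edgeR (2 at an unadjusted p under 0.05), in the 43 deeper (2) and 17 shallower libraries (1) and without mice 41 to 56 (3). Cox7a2 kept an adjusted p under 0.05 in 11 of 15 alternatives, with log2 differences of -0.68 to -0.47 and adjusted p of 0.00114 to 0.879. Genes called for sex were 0 in the 43 deeper, 1 in the 17 shallower libraries and 0 without mice 41 to 56. Exon rows called were 6, 0 and 6 in the same sets and 62 with the 3′ slope as a covariate, and member rows 2, 0 and 2. Of the 100 members, 66 were shared when ranked by median absolute deviation over median, 54 with a mean of at least 1000, 53 in the 17 shallower libraries, and 56 without the 20 libraries that stood apart. Separate levels were found in 4 members in the 43 deeper libraries and in 4 without mice 41 to 56. The shares over all genes in these sets are not given here, so both counts are a description. In the 3′ slope the 4 mice and mice 41 to 56 stood apart. Over all 60 mice the median correlation with it was -0.884 for 41 genes of the Grin2b group and 0.490 for the Cox6c group. The 41 leave out the 7 features far higher in mice 41 to 56. The share at an absolute r over 0.6 was 100% and 8.33%, against 28.5% of the 4987 genes. In the 17 shallower libraries the median correlation was -0.49 for the 41 genes and reversed to -0.041 for the Cox6c group. The cause was not tested. The alternatives that concern mice 41 to 56, the exon rows and the 17 shallower libraries for correlations were added after the data were seen. No paired analysis was possible because each mouse has its own number in the labels.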

Other observations

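The mitochondrial ribosomal RNA gene mt-Rnr1, listed at 0 in the gene table, had exon row values of 331538 to 865776 in mice 41 to 56 (median 624738) and 99364 to 391541 in the other 44 mice (median 166088), a ratio of medians of 3.76, with overlap. Without mice 41 to 56, separate levels were found in Csmd1, Fat3 and Lrrc7, each with 5 low mice and 39 others. For each of these genes, the 4 mice with 3′ shifted reads were among the 5 low mice. Csmd1 was 465 to 578 in those 4 mice and at least 780 in the other mice. The definition needs at least 5 mice on each side, so another mouse had to join them. Separate levels were also found in ENSMUSG00000089944, with 30 low mice and 14 others.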
